A study of Mus musculus with 30 samples.

Results

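Cytosolic ribosomal proteins, the protein building blocks of the ribosomes that translate nuclear-encoded messenger RNA, were followed as a group of 48 genes among 18194 genes that had a probe set of their own on the array. Members were taken by name alone: a single gene symbol of the form Rpl or Rps plus a number (with the suffix a, x, l or l1 where present), Rplp0, Rplp1 or Rplp2, or Rpsa. Where a gene had several probe sets the probe set with the highest mean over all arrays stood for it. By the prefix of the symbol alone, 26 of the 48 members were counted with the large subunit and 22 with the small subunit. The filter on low signals, a mean log2 value above 5.33, was passed by 45 of them (24 large, 21 small). The remaining 3, Rpl39l at a mean of 4.74, Rpl3l at 4.12 and Rps16 at 3.93, were not tested, whereas the dimmest members inside the filter were Rpl14 at 7.05, Rps27 at 8.06 and Rpl12 at 8.10. Rplp1, Rpl3, Rpl5, Rpl10, Rpl35a and Rps27a had no probe set with a single symbol and were not analysed here as members.

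The study deleted Rb1, which encodes the retinoblastoma protein that holds back E2F transcription factors, alone or together with Myc in the small intestine of mice. Deletion used Ah-cre, an inducible Cre recombinase under a Cyp1a1 promoter that acts in the intestinal epithelium, and tissue was taken 5 days later from adults 2 months of age. Villi, which carry differentiated epithelium, and crypts, which hold stem, dividing and Paneth cells, were each profiled in control mice, in mice lacking Rb1 (Rb KO) and in mice lacking Rb1 and Myc (the Rb/Myc DKO), with 5 arrays in each of the 6 groups. The genotype of the controls, including whether they carried the Cre transgene or received the inducer, is not given in the sources used here. Values are log2 signals, so differences between groups are log2 ratios. Group levels are given as mean ± SD with n = 5, differences as log2 ± standard error (SE), and adjusted p-values come from limma fits over 14548 genes in each tissue (both directions, Benjamini-Hochberg, threshold 0.05). Whether each replicate came from an animal of its own is not in the labels, so each p-value measures only the spread between these samples.

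Ribosomal protein genes are transcribed at high rates in growing cells, and their products are imported into the nucleolus, where they are assembled on ribosomal RNA into subunits in roughly equal amounts. Their mRNAs start with a run of pyrimidines, the 5′ terminal oligopyrimidine (TOP) tract, through which mTOR signalling and the RNA-binding protein Larp1 control their translation together. Myc is known as an activator of ribosomal RNA synthesis, ribosomal protein genes and assembly factors. In the intestine, ribosome production is highest in the dividing crypt cells and declines as cells differentiate on the villus.

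The promoters below show what several members share in sequence at their start sites. They come from the RefSeq annotation of assembly GRCm38.p6, in which 42 of the 48 members were matched by symbol (Rpl7, Rpl8, Rps14, Rps20, Rps29 and Rps4l were not matched). Each run spans 120 bases, from 100 before the annotated start to 20 from it onward, on the gene's strand from 5′ to 3′. Capitals mark a run of 7 or more C or T that overlaps the positions from 5 bases before to 10 after the start, a match to the ETS-type motif CCGGAAG on either strand, or the E-box CACGTG. Matches outside the printed bases are not shown. The first set holds genes that were lower in DKO crypts: Rps6 and Rpl14 had the smallest p-values, and Rpl22l1, Rps18, Rpl12 and Rpl19 stand for other depths of the fall.
Rps6, chr4:86857348-86857467 (minus strand): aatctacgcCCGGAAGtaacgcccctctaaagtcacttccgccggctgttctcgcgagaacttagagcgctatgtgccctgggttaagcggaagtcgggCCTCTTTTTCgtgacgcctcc
Rpl14, chr9:120571417-120571536 (plus strand): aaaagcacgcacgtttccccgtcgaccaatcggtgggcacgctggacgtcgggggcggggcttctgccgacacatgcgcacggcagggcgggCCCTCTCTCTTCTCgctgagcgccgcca
Rpl22l1, chr3:28805408-28805527 (plus strand): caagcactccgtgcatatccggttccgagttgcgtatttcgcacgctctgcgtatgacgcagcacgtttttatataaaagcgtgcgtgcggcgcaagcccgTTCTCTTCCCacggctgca
Rps18, chr17:33955646-33955765 (minus strand): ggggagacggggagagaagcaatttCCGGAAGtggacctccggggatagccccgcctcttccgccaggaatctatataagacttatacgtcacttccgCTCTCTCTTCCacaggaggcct
Rpl12, chr2:32961612-32961731 (plus strand): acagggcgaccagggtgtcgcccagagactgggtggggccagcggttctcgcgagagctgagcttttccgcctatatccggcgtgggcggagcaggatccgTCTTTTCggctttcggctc
Rpl19, chr11:98026610-98026729 (plus strand): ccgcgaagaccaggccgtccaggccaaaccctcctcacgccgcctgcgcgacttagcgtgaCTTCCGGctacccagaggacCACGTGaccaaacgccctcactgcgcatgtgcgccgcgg
The second set holds genes whose difference in the same comparison did not pass the threshold, Rps27l and Rpl41. Rps27l and Rpl19 have 2 annotated starts each, of which the first is printed.
Rps27l, chr9:66945986-66946105 (plus strand): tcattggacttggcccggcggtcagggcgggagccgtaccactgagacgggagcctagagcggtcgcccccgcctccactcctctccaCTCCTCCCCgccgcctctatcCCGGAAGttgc
Rpl41, chr10:128549149-128549268 (minus strand): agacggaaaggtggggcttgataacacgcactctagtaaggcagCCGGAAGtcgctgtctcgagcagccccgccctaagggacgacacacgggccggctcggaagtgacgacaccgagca

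Within windows of 300 bases (250 before to 50 after the start, both strands for the motifs), a pyrimidine run at the start was found in 23 of 42 matched members, 54.8% against 18.8% of 27025 genes in the table. CCGGAAG was found in 20 of 42, or 47.6%, against 9.93% of all genes. The YY1-type letters ATGGCGG were in 7 members (16.7% against 4.69%) and the E2F-type letters GCGGGAA in 4 (9.52% against 5.29%). The E-box CACGTG, the sequence that Myc-Max dimers bind, was in 4 members (Rpl13a, Rpl14, Rpl19 and Rps19), 9.52% against 8.09% of all genes. A match describes these letters in these windows and does not show that a factor binds there.

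Arrays of a group correlated at 0.987 to 0.997. Rb1 was lower in all knockout groups, with differences from control of -1.46 ± 0.16 in Rb KO villi and -1.68 ± 0.18 in Rb KO crypts. Myc read 9.98 to 11.04 in Rb KO crypts and 8.67 to 9.01 in DKO crypts and fell by 1.60 ± 0.16 (limma adjusted p = 1.9e-05). In villi Myc was 7.28 ± 0.21 in Rb KO and 6.76 ± 0.17 in DKO, a difference of -0.52 ± 0.21 that did not pass (limma adjusted p = 0.15). The tissue labels were read against defining markers: the stem cell gene Olfm4 stood at 8.58 to 11.86 on villus and 13.67 to 14.21 on crypt arrays, and Krt20 of differentiated cells at 13.63 to 13.996 and 11.06 to 12.55. The tissues appear to have been normalized separately, so levels were compared only within a tissue: array medians were 6.28 to 6.34 in villi and 6.67 to 6.73 in crypts.

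In crypts, ribosomal protein transcripts were lower when Myc was deleted together with Rb than when Rb was deleted alone. Of the 45 tested members, 36 fell in DKO against Rb KO crypts and 0 rose, where 7.22% of all tested genes fell. Differences were below 0 for 44 members, against 47.8% of all genes, and the median difference was -0.24, a change of -15.6%, beside 0.01 over all genes. The members' differences were mostly alike: 31 lay between -0.4 and -0.1, 8 were below -0.4, and the remaining 6 lay above -0.1. In 36 members all 5 DKO arrays were below all 5 Rb KO arrays, as was the case for 6.78% of all genes. In a single fit of all 30 arrays, which pools the spread of crypts with the wider spread of villi, 5 members passed. In bulk tissue, fewer cells of a type and less RNA per cell cannot be told apart.

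**Figure D1:**
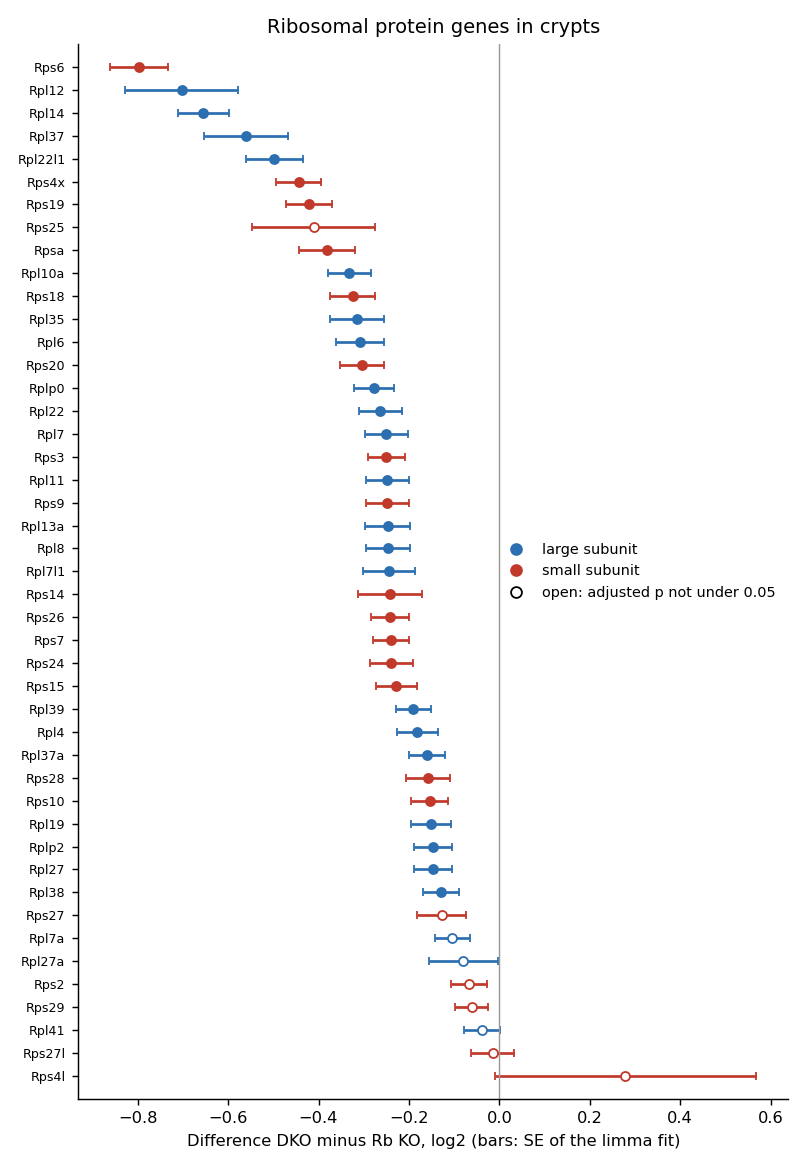
Difference between DKO and Rb KO crypts (horizontal axis, log2) for each of the 45 tested ribosomal protein genes (vertical axis), as points with bars of 1 SE from the limma fit, blue for the large and red for the small subunit; open points did not pass an adjusted p of 0.05. All members except Rps4l lie below 0, from -0.80 for Rps6 to -0.02 for Rps27l, and the subunits are interleaved.

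Among small subunit members the deepest fall was that of Rps6, the substrate of the S6 kinases downstream of mTOR. Its 5 arrays read 10.68, 10.43, 10.68, 10.68 and 10.61 in control crypts, 10.41, 10.52, 10.43, 10.42 and 10.35 in Rb KO crypts, and 9.44, 9.66, 9.69, 9.75 and 9.60 in DKO crypts. The DKO values were separate from both other groups, and Rps6 fell by 0.80 ± 0.06 against Rb KO (limma adjusted p = 3.0e-06), a change of -42.4%. Rps4x, the X-linked S4 gene, went from 14.35 ± 0.02 to 13.90 ± 0.11 (difference -0.44 ± 0.05, limma adjusted p = 4.9e-05). Rps19, the gene most often mutated in Diamond-Blackfan anaemia, read 14.09, 14.15, 14.11, 14.06 and 14.002 in Rb KO and 13.54, 13.60, 13.63, 13.75 and 13.77 in DKO crypts. It fell by 0.42 ± 0.05 (limma adjusted p = 8.5e-05), with no overlap of the groups. Rps24 and Rps26, also among the genes of that anaemia, fell by 0.24 ± 0.05 and 0.24 ± 0.04, with limma adjusted p-values of 0.0038 and 0.0016.

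Among further members of the small subunit, Rpsa, also known as the laminin receptor precursor, fell by 0.38 ± 0.06, from 14.06 ± 0.06 to 13.68 ± 0.14. Rps3, which lies at the mRNA entry, fell by 0.25 ± 0.04. Rps2, its neighbour at the entry, differed by only -0.07 ± 0.04 (limma adjusted p = 0.30), with overlapping arrays. Rps18 fell by 0.32 ± 0.05 and Rps20 by 0.30 ± 0.05. The smallest falls among the 15 small subunit genes that passed were those of Rps10 (-0.15 ± 0.04) and Rps28 (-0.16 ± 0.05).

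In the large subunit, Rpl14 read 8.67, 8.55, 8.82, 8.67 and 8.69 in control, 8.49, 8.43, 8.51, 8.52 and 8.45 in Rb KO, and 7.72, 7.83, 7.95, 7.88 and 7.75 in DKO crypts. The 3 groups did not overlap, and Rpl14 fell by 0.66 ± 0.06 in DKO against Rb KO (limma adjusted p = 5.2e-06). Rpl12, at the base of the stalk that recruits translation factors, went from 9.47 ± 0.16 to 8.77 ± 0.18 (difference -0.70 ± 0.13, limma adjusted p = 0.0019). Rpl37 fell by 0.56 ± 0.09, from 11.54 ± 0.07 to 10.98 ± 0.19. Rpl10a, the protein of the mobile L1 stalk, fell by 0.33 ± 0.05.

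The P stalk, on which elongation factors dock, is represented by its anchor Rplp0 and by the acidic protein Rplp2. Rplp0 read 14.69, 14.72, 14.74, 14.75 and 14.74 in control, 14.67, 14.69, 14.65, 14.65 and 14.63 in Rb KO, and 14.28, 14.32, 14.41, 14.48 and 14.41 in DKO crypts. It fell by 0.28 ± 0.04 (limma adjusted p = 7.1e-04), and Rplp2 by 0.15 ± 0.04 (limma adjusted p = 0.030). Rpl11, which with Rpl5 and 5S ribosomal RNA forms the particle that can bind Mdm2, fell by 0.25 ± 0.05, from 13.64 ± 0.05 to 13.39 ± 0.06. Rpl38 had the smallest fall among the 21 large subunit genes that passed, -0.13 ± 0.04 (limma adjusted p = 0.043).

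**Figure D2:**
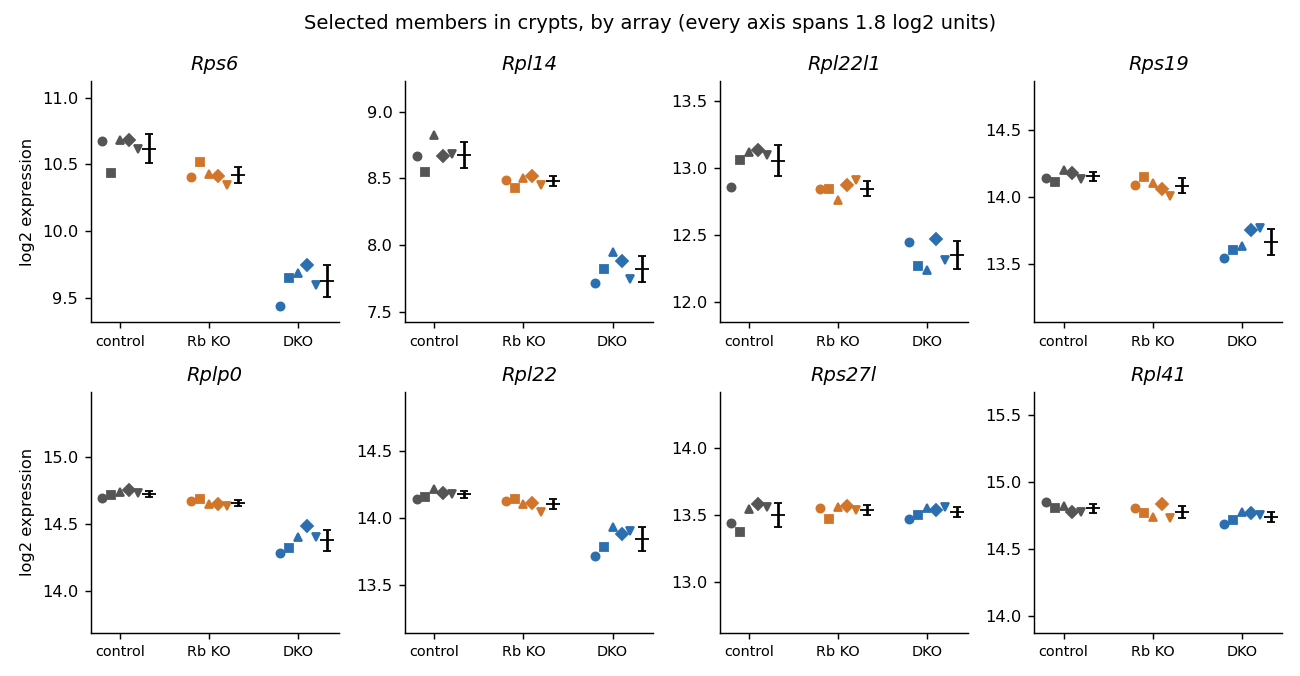
Log2 expression of selected members in crypts (vertical axes, each spanning 1.8 log2 units) in control, Rb KO and DKO mice (horizontal axes); each symbol is 1 array, with its shape giving the replicate number, and the black mark shows the group mean with bars of 1 SD. In Rps6, Rpl14, Rpl22l1, Rps19, Rplp0 and Rpl22 the DKO arrays lie below all other arrays, while in Rps27l and Rpl41 the groups overlap.

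Several members are paralogs of each other, and differences within a pair were not tested. Rpl22 and its paralog Rpl22l1 both fell, the former by 0.26 ± 0.05 and the latter by 0.50 ± 0.06, with Rpl22l1 at 12.85, 12.84, 12.76, 12.87 and 12.91 in Rb KO and at 12.45, 12.27, 12.24, 12.47 and 12.31 in DKO crypts. Rpl7 and its nucleolar paralog Rpl7l1 fell by 0.25 ± 0.05 and 0.24 ± 0.06. Rps27 differed by -0.13 ± 0.05 (limma adjusted p = 0.15) and Rps27l, a paralog known as a p53 target, by -0.02 ± 0.05 (limma adjusted p = 0.88). Rps27l read 13.55, 13.47, 13.56, 13.56 and 13.54 in Rb KO and 13.46, 13.50, 13.55, 13.54 and 13.56 in DKO crypts, with the groups overlapping throughout. Rps4l was the member with a difference above 0, at 0.28 ± 0.29 (limma adjusted p = 0.59), and its control arrays alone ranged from 9.62 to 11.85. X-linked Rpl39 fell by 0.19 ± 0.04. Its paralog Rpl39l, which failed the filter by its mean over all arrays, read between 5.06 and 5.36 on crypt arrays.

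The 9 members that did not pass were Rps25, Rpl27a, Rps27, Rpl7a, Rps2, Rps29, Rpl41, Rps27l and Rps4l. Rps25 had a difference of -0.41 ± 0.14, with overlapping arrays (limma adjusted p = 0.060). Rpl7a (-0.10 ± 0.04, limma adjusted p = 0.092) and Rps29 (-0.06 ± 0.04, limma adjusted p = 0.31) were separate between the groups yet above the threshold. Rpl41, the shortest ribosomal protein, read 14.81, 14.77, 14.74, 14.84 and 14.74 in Rb KO and 14.69, 14.72, 14.78, 14.77 and 14.75 in DKO crypts, a difference of -0.04 ± 0.04.

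Against control crypts, which share the DKO arrays with the comparison above, 39 of 45 members fell in DKO and 0 rose, where 9.19% of all tested genes fell. The median difference was -0.30, and 37 members had all DKO arrays below all control arrays (5.97% of all genes). Rps6 fell by 0.99 ± 0.06 (limma adjusted p = 1.3e-07), Rpl14 by 0.85 ± 0.06 and Rpl22l1 by 0.71 ± 0.06. The 6 that did not pass were Rps29, Rpl27a, Rps2, Rpl41, Rps4l and Rps27l.

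Loss of Rb alone left the crypt levels close to control. In Rb KO against control crypts 2 of 45 members fell and 0 rose, where 2.97% of all tested genes fell. These were Rpl14 (-0.20 ± 0.06, limma adjusted p = 0.035) and Rpl22l1 (-0.21 ± 0.06, limma adjusted p = 0.045), the latter with overlapping arrays. Differences were below 0 for 42 members (51.1% of all genes), with a median of -0.06, and 4 of them (Rpl14, Rps26, Rplp0 and Rpl7) had separate groups, against 2.68% of all genes. Both calls were lost when any Rb KO replicate, or control replicate 3, 4 or 5, was left out: the count was then 0.

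Averaged over the 45 members and set relative to the control mean of the crypts, the arrays read 0.00, -0.04, 0.04, 0.04 and -0.04 in control, -0.06, -0.04, -0.07, -0.05 and -0.11 in Rb KO, and -0.37, -0.39, -0.30, -0.25 and -0.30 in DKO. The DKO arrays were the lowest 5 of the 15, while the control and Rb KO ranges met. The members also varied little from array to array: the median SD of a member was 0.05 among controls, 0.04 with Rb loss and 0.08 with loss of both genes, beside 0.12, 0.09 and 0.11 over all genes.

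**Figure D3:**
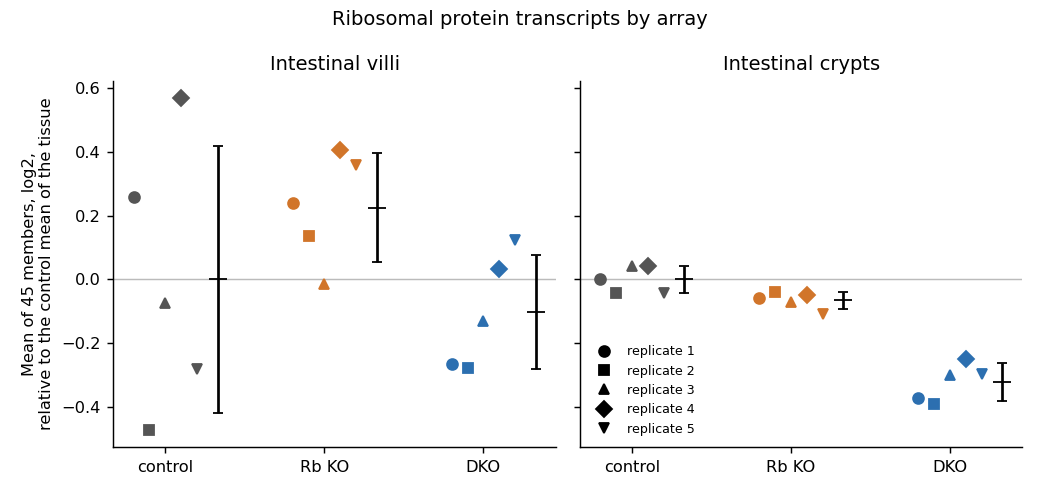
Mean log2 signal of the 45 tested members on each array relative to the control mean of the same tissue (vertical axis), by genotype (horizontal axis) in villi (left) and crypts (right); symbols are arrays, their shape gives the replicate number, and the black mark shows the group mean with bars of 1 SD. In crypts the DKO arrays lie between -0.39 and -0.25, below all others, whereas in villi the control arrays spread from -0.47 to 0.57.

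The subunits moved together in crypts. Of the large subunit members 21 of 24 fell in DKO against Rb KO (median -0.25), and of the small subunit members 15 of 21 fell (median -0.24). Of all tested genes 7.22% fell there. Against control the counts were 22 of 24 and 17 of 21, with medians of -0.30 and -0.29, where 9.19% of all tested genes fell. The mean of the large minus the mean of the small subunit members, relative to control, was -0.06 ± 0.03 in DKO and -0.03 ± 0.01 in Rb KO crypts. Individual arrays lay at -0.11 to -0.03 in DKO crypts, while Rb KO arrays lay at -0.04 to -0.02 and controls at -0.04 to 0.07. The mean of all members was between -0.39 and -0.25 on the DKO arrays. With the mean of all probe sets per gene the large minus small difference was -0.10 in DKO against control crypts, in place of -0.06, and -0.07 in DKO against Rb KO crypts, in place of -0.03.

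Where a gene had more than 1 probe set, the others mostly agreed in sign. Among 49 further probe sets above the filter, 45 had the sign of the member's main probe set in DKO against Rb KO crypts, 37 fell and 0 rose. Of the members that fell, Rps4x, Rps24 and Rps3 each had a second, dimmer probe set with the other sign, at 0.00, 0.24 and 0.19, none of which passed the threshold. A further 105 probe sets above the filter list several gene symbols of which at least 1 fits the naming rule; they name no gene here, and 79 of them fell and 0 rose in the same comparison, where 5.93% of all probe sets fell.

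Signals were high on the scale of the array, whose top was 15.21, and the deepest differences in crypts were those of members with lower signals. The median member stood at the 99.1st to 99.5th percentile of tested genes on crypt arrays and at the 95.2nd to 98.5th on villus arrays. Of the 29 members at 14 or above in Rb KO crypts, 25 fell, with a median difference of -0.24 and the deepest at -0.44. Of the 6 members between 12 and 14, 5 fell, with a median of -0.25. Of the 10 members below 12, 6 fell, with a median of -0.33 and the deepest at -0.80. These counts are for DKO against Rb KO crypts, where 7.22% of all tested genes fell. Across the 45 genes, which are not independent replicates, the correlation of difference with signal was 0.33 (Pearson) and 0.35 (Spearman) in crypts, and had the other sign in villi, at -0.29 and -0.10. Whether differences near the top of the scale were compressed was not tested.

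Other mRNAs with TOP tracts moved in the same direction. Of 20 measured genes of a list of translation factors and related TOP mRNAs, 11 fell and 0 rose in DKO against Rb KO crypts. Their median was -0.21, and 7.22% of all tested genes fell in this comparison. Eef1b2, an exchange factor of the elongation factor eEF1A, fell by 0.62 ± 0.06, and the initiation factor gene Eif4b by 0.58 ± 0.07. Npm1, which encodes the nucleolar protein nucleophosmin, fell by 0.47 ± 0.06, and the eIF3 subunit gene Eif3f by 0.36 ± 0.05. Eef1a1 itself differed by -0.06 ± 0.04 and Tpt1 by -0.10 ± 0.04, neither past the threshold. Of the ribosomal protein genes whose symbols fall outside the naming rule, Rps3a1 fell by 0.24 ± 0.05, and Fau, which carries S30 fused to a ubiquitin-like protein, differed by -0.03 ± 0.04 (limma adjusted p = 0.70).

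Factors that build ribosomes were lower as well. Of 26 measured assembly and chaperone genes, 12 fell and 0 rose in DKO against Rb KO crypts, with a median of -0.23. Of all tested genes 7.22% fell there. Tsr1, needed for maturation of the small subunit, fell by 0.70 ± 0.09. Rrs1, which brings the 5S particle into the large subunit, fell by 0.66 ± 0.07, and Dkc1, the pseudouridine synthase of ribosomal RNA, by 0.65 ± 0.06. Grwd1, a chaperone of Rpl3, fell by 0.62 ± 0.08, and the methyltransferase gene Fbl by 0.43 ± 0.06. Among 14 regulators of ribosomal protein genes 4 fell, beside the same 7.22% of all tested genes. One of these was Myc itself, which is deleted in DKO by design. The others were Mxi1 (-0.51 ± 0.14), which encodes a Max-binding antagonist of Myc, Eif4ebp2 (-0.26 ± 0.05) and Larp1 (-0.21 ± 0.06).

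Falls were compared with the promoter letters shown above. In DKO against Rb KO crypts the median difference was -0.24 in 19 tested members with CCGGAAG and -0.25 in 20 matched members without it. It was -0.24 in 22 members with the pyrimidine run at the start and -0.25 in 17 without. The 4 members with CACGTG had a median of -0.33, beside -0.24 in 35 without it. These medians are descriptions and carry no test.

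Cell type markers on the same crypt arrays did not all stay level. The crypt marker list (9 genes, among them Olfm4, Lgr5 and Lyz1) was higher in DKO than in Rb KO by 0.30 on average, with array scores of -0.12 to 0.26 in DKO and -0.42 to -0.02 in Rb KO (exact 2-sided permutation p = 0.016, 0.13 after adjustment over 48 such readings). Of its 9 genes 3 (Ang4, Slc12a2 and Itln1) rose and 0 fell, so Olfm4, Lgr5 and Lyz1 did not pass the threshold. Over all tested genes 752 of 14548 rose in this comparison. Adjusted for the crypt marker score, which itself read higher in DKO than in Rb KO, 33 members fell, with a median of -0.29. The share of all genes in that fit is not given here. The villus enterocyte list (10 measured genes) had scores of 0.06 to 0.42 in DKO, -0.02 to 0.57 in Rb KO and -0.51 to 0.36 in control crypts. Of its 10 genes 9 were above 0 in DKO against control (median 0.23, 1 past the threshold). In Rb KO against control 8 were above 0 (median 0.23, 1 past the threshold). Over all 14548 tested genes 7699 and 7120 were above 0 in these comparisons, and 1605 and 1066 rose. The leukocyte list (10 genes) had scores of 0.20 to 0.59 in DKO, -0.19 to 0.52 in Rb KO and -0.17 to 0.19 in control crypts. Its score was higher in DKO than in control by 0.44 (exact 2-sided permutation p = 0.0079, 0.095 after adjustment over 48 readings). Against Rb KO the score was higher by 0.33 (exact 2-sided permutation p = 0.063, 0.25 after adjustment). Of its 10 genes 1 (Itgae) rose in DKO against Rb KO, where 752 of 14548 tested genes rose. The exocrine pancreas list (8 measured genes) ranged from -0.99 to 3.29 in DKO and from -0.70 to 1.30 in Rb KO and -0.83 to 1.75 in control crypts. In DKO against Rb KO 1 of 8 (Clps) rose, beside the same 752 of 14548 tested genes. The part of crypt cells, enterocytes, leukocytes and pancreas in the ribosomal protein result was not tested.

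In villi the levels were more variable and few differences passed the threshold. The mean of the 45 members, relative to the control mean of the villi, read 0.26, -0.47, -0.07, 0.57 and -0.28 in control, 0.24, 0.14, -0.02, 0.41 and 0.36 in Rb KO, and -0.27, -0.28, -0.13, 0.03 and 0.12 in DKO arrays. Control replicates 1 and 4 were high and replicate 2 was low, and the control range covered every array of both other groups. Xist, the RNA of the inactive X chromosome that marks females, was high (12.25 to 13.18) in control replicates 1 and 4, Rb KO replicate 3 and DKO replicates 4 and 5, and 6.38 to 6.83 on all other villus arrays. These arrays had the highest ribosomal protein means among controls and among DKO villi but the lowest among Rb KO villi. With sex by Xist as a covariate 8 members rose in Rb KO against control villi and 9 fell in DKO against Rb KO villi. The shares of all genes in that fit are not given here. A member had a median SD of 0.45 among control villi, beside 0.14 over all genes, and of 0.19 in either knockout group.

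In Rb KO against control villi 1 of 45 members rose, where 14.7% of all tested genes rose, and 0 fell, where 15.8% did. This was Rps27l, at 12.26, 12.002, 12.20, 12.38 and 12.25 in control and 12.61, 12.32, 12.35, 12.68 and 12.65 in Rb KO villi, a rise of 0.30 ± 0.09 (limma adjusted p = 0.017) with overlapping arrays. Differences were above 0 for 41 members (45.3% of all genes), with a median of 0.24. Rpsa had the largest, 0.59 ± 0.22 (limma adjusted p = 0.060), while Rps6 stood at -0.01 ± 0.25. The count depended on single control arrays: it was 20 without control replicate 4, 4 without control replicate 1, 2 without Rb KO replicate 3, 0 without control replicate 2, and 36 without control replicates 1 and 4 together. Control replicates 1 and 4 had the highest member means among control villi, so leaving them out raises the difference by construction. Leaving out Rb KO replicate 3, the lowest of the Rb KO villi, raises it as well. Control replicate 2 was the lowest control, so leaving it out lowers the difference by construction. Shares of all genes in these fits are not given here.

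Of the ribosome assembly genes 4 of 26 rose in Rb KO against control villi, a share near the 14.7% of all genes that rose: Nop56 by 1.08 ± 0.22, Nop58 by 0.96 ± 0.22, Nmd3 by 0.21 ± 0.08 and Eif6 by 0.18 ± 0.06. Nop56 and Nop58 are core proteins of the particles that methylate ribosomal RNA, and Nmd3 and Eif6 act late in maturation of the large subunit. The TOP list had 3 of 20 higher (Nap1l1, Ipo7 and Hnrnpa1) and 1 lower (Eif4b), where 14.7% and 15.8% of all genes were.

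In DKO against Rb KO villi 44 of 45 members had differences below 0, where 51.4% of all genes did, with a median of -0.33. No member passed the threshold in limma, where 1.92% of all genes fell, and at an unadjusted p under 0.05 there were 20 lower members and 0 higher ones, where 10.1% of all genes were lower. The smallest adjusted p was that of Rpl13a, at 13.36, 13.32, 13.14, 13.39 and 13.37 in Rb KO and 12.84, 12.65, 12.78, 12.91 and 13.09 in DKO villi (difference -0.46 ± 0.15, limma adjusted p = 0.072). Its groups did not overlap, nor did those of Rps28, Rps19 and Rps15, 4 of 45 members, where 2.96% of all genes were separate and lower. The SE of a member was larger here than in crypts, with a median of 0.17 against 0.05. Fitted on the Rb KO and DKO arrays alone, without the variable controls, 16 members passed. The share of all genes that passed in that fit is not given here.

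In DKO against control villi 0 of 45 members passed the threshold in limma where 17.1% of all genes did, and 0 had an unadjusted p under 0.05, where 31.2% did. The median difference was -0.07, and 34 members were below 0, as were 56.1% of all genes. The largest differences were -0.40 ± 0.25 for Rps6 and -0.39 ± 0.20 for Rplp0.

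Within each genotype, crypt markers mostly moved with the ribosomal protein genes across villus arrays. Between genotypes they did not: DKO villi had the highest mean crypt marker score and the lowest mean of the members (-0.10). The crypt marker score was 0.43, -0.94, 0.00, 1.31 and -0.81 in the control, 0.51, 0.23, -0.12, 1.17 and 0.47 in the Rb KO and 0.51, 0.19, 0.55, 1.38 and 0.96 in the DKO villi. Control replicates 1 and 4, the arrays with the highest ribosomal protein means among the controls, also had the highest crypt scores there, and replicate 2 was lowest in both. DKO arrays had lower ribosomal protein means than control or Rb KO arrays of similar crypt score. Adjusted for the crypt marker score, 39 members fell in DKO against Rb KO villi (median -0.46) and 36 in DKO against control villi (median -0.39). The score itself averaged 0.45 above control in Rb KO and 0.72 above control in DKO villi. Adjusting for it therefore shifts the differences between genotypes by construction. In Rb KO against control villi 2 members (Rps27l and Rpsa) rose in this fit (median 0.05). The shares of all genes that passed in these adjusted fits are not given here, so the counts cannot be set against them. No crypt marker passed the threshold in Rb KO against control or in DKO against Rb KO villi. In DKO against control villi 1 of 9 rose, where 1643 of 14548 tested genes rose.

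**Figure D4:**
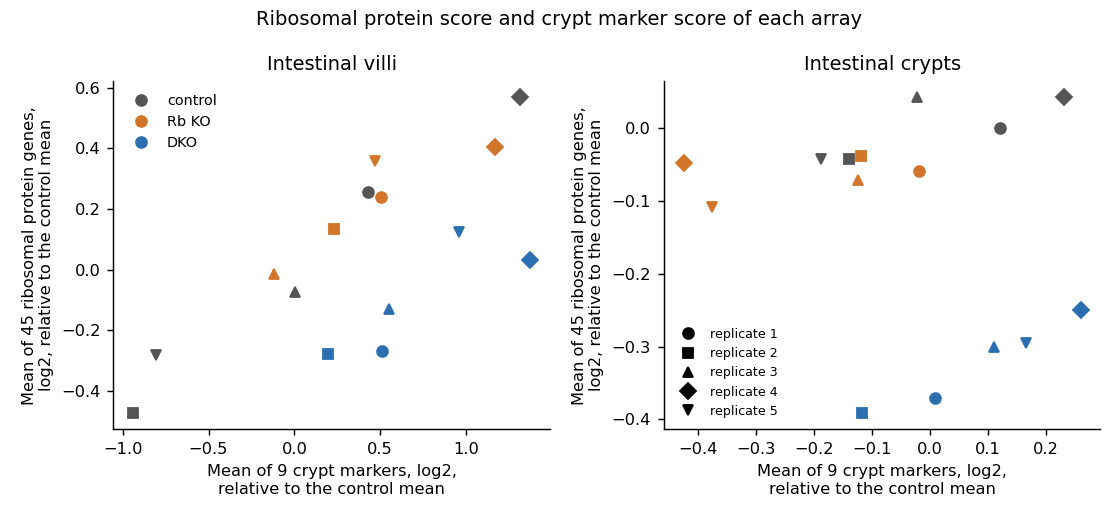
Mean of the 45 tested members (vertical axis, log2 relative to the control mean of the tissue) against the mean of 9 crypt markers on the same array (horizontal axis, same scale) in villi (left) and crypts (right); colour gives the genotype and symbol shape the replicate number. In villi the DKO arrays, at -0.28 to 0.12, lie below Rb KO arrays of similar crypt marker score, and in crypts the DKO arrays lie below all others at every crypt marker score.

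Other readings differed between the villus groups as well. The 3′ minus 5′ signal of the GAPDH control probe sets, a measure of RNA integrity, was -0.09 to 0.01 in Rb KO villi, beside -0.21 to -0.11 in control and -0.11 to -0.07 in DKO villi. It was higher in Rb KO than in control by 0.09 (exact 2-sided permutation p = 0.0079, the smallest that 252 splits can give, 0.095 after adjustment over 48 readings). With it as a covariate 13 members rose in Rb KO against control villi (median 0.57) and 8 fell in DKO against Rb KO villi. Shares of all genes under this covariate are not given here. In crypts this reading differed by 0.03 between DKO and Rb KO (exact permutation p = 0.25), and with it as a covariate 28 members fell there. The leukocyte score was -0.78 to -0.19 in Rb KO villi, -0.28 to 0.27 in control and -0.06 to 0.22 in DKO villi. It differed by -0.50 between Rb KO and control (exact 2-sided permutation p = 0.016, 0.13 after adjustment). Between DKO and Rb KO it differed by 0.53 (exact 2-sided permutation p = 0.0079, 0.095 after adjustment). In Rb KO against control 7 of 10 leukocyte genes fell, where 15.8% of all genes fell. In DKO against Rb KO 5 of 10 rose, where 859 of 14548 tested genes rose. The exocrine pancreas score was -0.36 to 1.82 in DKO villi, beside -0.36 to 0.18 with Rb loss alone and -0.26 to 0.37 in control villi. Of its genes 2 of 8 rose in DKO against Rb KO, beside the same 859 of 14548 tested genes. The part of crypt cells, leukocytes and pancreas in the villus values was not tested.

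Whether the genotype effects differed between tissues was tested with interaction terms fitted to all 30 arrays. The effect of Rb loss was lower in crypts than in villi for 44 of 45 members (47.8% of all genes), with a median of -0.30, yet no member passed the threshold in limma, where 13.7% of all genes did. At an unadjusted p under 0.05 there were 9 lower members and 0 higher ones, where 12.8% of all genes were lower. With the animal as a random block 4 passed: Rpl7a, Rps27l, Rpsa and Rpl41, with limma adjusted p-values of 0.029 to 0.039. Without the block their limma adjusted p-values were 0.068 to 0.086. Their differences, with the SE of the fit without the block, were -0.35 ± 0.13, -0.26 ± 0.10, -0.63 ± 0.24 and -0.31 ± 0.12 in that order. Under the same block 20.5% of all genes passed, a larger share than the 4 of 45 members. Leaving out control replicate 4 gave 16 members without the block, and leaving out control replicate 1 or Rb KO replicate 3 gave 1 each. Leaving out control replicates 1 and 4 together gave 34. Both had high member means among control villi, so their removal lowers this term by construction. The effect of Myc loss on top of Rb loss differed between the tissues for 0 of 45 members, with or without the block, where 3.40% of all genes passed without it and 9.93% with it, and 0 had an unadjusted p under 0.05, where 11.1% of all genes did so as lower and 8.92% as higher. Its median was 0.13, with 35 members above 0 (49.6% of all genes), so that most differences were further below 0 in villi, with a wider spread there, than in crypts. The members with the smallest p-values in crypts, Rps6 and Rpl14, had interactions of -0.40 ± 0.28 and -0.41 ± 0.33. Myc itself did pass, at -1.08 ± 0.28 (limma adjusted p = 0.031).

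**Figure D5:**
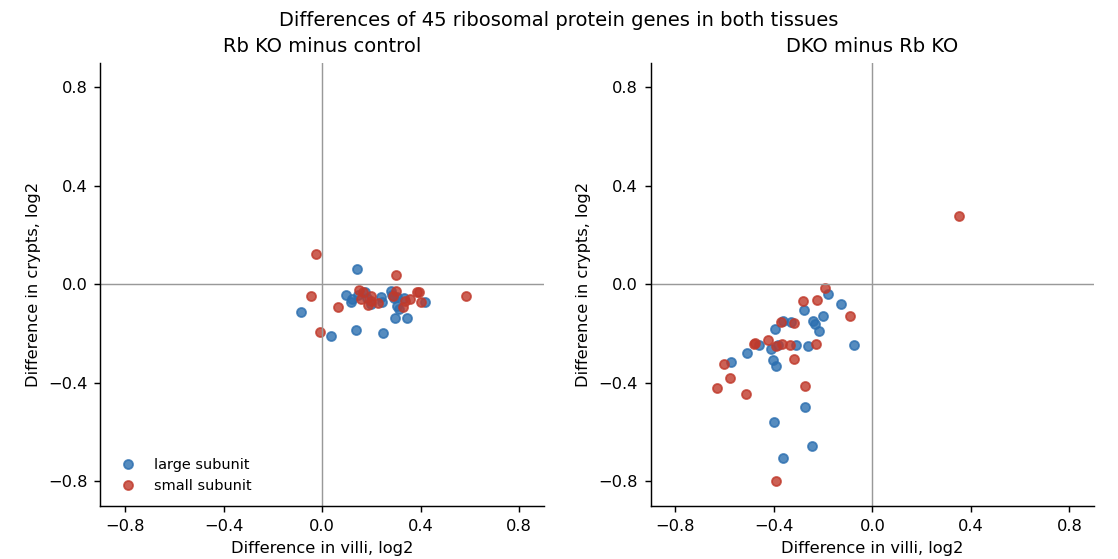
Differences of each of the 45 tested members in villi (horizontal axis, log2) and in crypts (vertical axis, log2) for Rb KO minus control (left) and DKO minus Rb KO (right); each point is a gene, blue for the large and red for the small subunit. On the left most genes lie right of 0 in villi (median 0.24) and just below 0 in crypts (median -0.06), and on the right 44 genes lie below 0 in both tissues.

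The subunits had similar medians in villi. In DKO against Rb KO villi the median difference was -0.32 for the large and -0.37 for the small subunit, and in Rb KO against control villi it was 0.24 and 0.23. The large minus small mean, relative to control, was -0.02 ± 0.03 with Rb loss and 0.00 ± 0.01 with loss of both genes, and single villus arrays stayed between -0.07 and 0.04. With the mean of all probe sets per gene the group difference turned sign, from -0.02 to 0.01 in Rb KO against control villi, from 0.02 to -0.03 in DKO against Rb KO villi and from 0.00 to -0.02 in DKO against control villi.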

How the data were processed

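Total RNA from 30 samples of mouse small intestine was hybridised to arrays, per the labels. The deposited table holds log2 values for 45101 probe sets; how the authors normalized them is not given in the sources used here. Each array had its own column, and 0 further columns of sample values were left unused. Of the probe sets, 34958 carry 1 gene symbol in the platform annotation, 932 several and 9211 none. Each gene was represented by its probe set of highest mean over all arrays, and 14548 of 18194 genes passed the filter, a mean above the 30th percentile of probe set means (5.33). Genotypes were compared within villi and within crypts with limma 3.58.1 in R 4.3.3 (lmFit and eBayes, 3 genotypes per fit), with Benjamini-Hochberg adjustment over all tested genes and a threshold of 0.05. Tissue differences came from a fit of 6 groups, also with the animal (genotype and number) as a random block (correlation 0.233). Samples of the same number and genotype in villi and crypts deviated together in 15 of 15 pairs (r = 0.246 to 0.560), and 14 of 15 correlated best with their own number. Array readings and marker scores were compared with an exact permutation test over 252 splits. Named members were the 10 of smallest p past the threshold (or the 4 of smallest p where fewer pass), the 3 of largest difference in each direction, and genes set by role. Rpl38, Rps10 and Rps28, the ends of the range of falls, were chosen after their values were seen, as were Rps25, Rpl7a, Rps29 and Rpl27a among those that did not pass. The members and lists were chosen with earlier results of these data known. The limma step was tested on simulated data. Figures were drawn with matplotlib 3.10.9. The number of arrays limits the precision.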

Additional observations from a re-analysis of the deposited data

Results flagged for a closer look

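Single arrays lay far from the other 4 of their group in 10 of 186 groups of values examined, where chance gives about 1 in 20. In crypts these were Rps6 in control replicate 2 at 10.43, Rpl22l1 in control replicate 1 at 12.86, Rpl7 in control replicate 4 at 14.16, Rps27l in Rb KO replicate 2 at 13.47, Rps7 in Rb KO replicate 2 at 14.37, Rpl10a in DKO replicate 4 at 13.83 and Rpl27a in DKO replicate 2 at 9.95. In villi they were Rpl39 in control replicate 1 at 8.82, Rpl13a in Rb KO replicate 3 at 13.14, and the large minus small subunit mean in Rb KO replicate 1 at -0.0661.

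The effect of Rb loss differed between crypts and villi for 4 members when the animal was a random block, by -0.35 for Rpl7a, -0.26 for Rps27l, -0.63 for Rpsa and -0.31 for Rpl41. None of the 4 passed without the block. Under the block 20.5% of all genes passed, a larger share than 4 of 45 members.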

How the results depend on the processing

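The fall in DKO crypts kept its direction and most of its calls: the count against Rb KO was 28 to 38 of 45 and against control 36 to 41 under the alternatives run, except for a single fit of all 30 arrays, which gave 5 and 8. Quantile normalization moved the medians to -0.18 and -0.23, and the crypt marker score as a covariate moved the former to -0.29. Leaving out 1 replicate gave 29 to 35 against Rb KO. Rps4x reversed to 0.00426 with its second probe set. In Rb KO against control crypts the count of 2 became 4 with the mean of all probe sets, 1 with no filter, the replicate block, the GAPDH covariate, the 2 groups alone or without control animals 1 and 4, and 0 with median centring, the crypt marker score, all 30 arrays or without Rb KO animals 4 and 5; leaving out 1 replicate gave 0 to 2. In Rb KO against control villi the count of 1 became 2 with the mean of probe sets or the crypt marker score, 4 with quantile normalization, 5 with the replicate block or a threshold of 0.10, 6 with array weights, 8 with sex, 9 with all 30 arrays, 13 with the GAPDH covariate (median 0.57), 36 without control animals 1 and 4 and 0 without Rb KO animals 4 and 5; leaving out 1 replicate gave 0 to 20. In DKO against Rb KO villi the count of 0 became 1 with the mean of probe sets, no filter, array weights or a threshold of 0.10, 3 with the replicate block, 8 with the GAPDH covariate, 9 with sex, 16 with all 30 arrays or the 2 groups alone, and 39 with the crypt marker score. DKO against control villi gave 36 with the crypt marker score (median -0.39). For the Rb effect between tissues the count of 0 became 2 with quantile normalization, 4 with the replicate block (the animal) or a threshold of 0.10, 5 with sex, 9 with array weights, 27 with the GAPDH covariate (median -0.63) and 34 without control animals 1 and 4; leaving out 1 replicate gave 0 to 16. For the Myc effect it became 1 with no filter or the crypt marker score. The large minus small difference moved with the mean of probe sets to 0.0127 (Rb KO against control), -0.0349 (DKO against Rb KO) and -0.0221 (DKO against control) in villi and to -0.0717 (DKO against Rb KO) and -0.0994 (DKO against control) in crypts, and with the second probe set to 0.00135, -0.0337 and -0.0323 in villi. The causes were not tested. Counts under these alternatives stand without the share of all genes that passed, except for the animal as a random block. Control animals 1 and 4 had the highest member means among control villi, so leaving them out raises the Rb KO difference there by construction. Rb KO animals 4 and 5 had the highest among Rb KO villi, so leaving them out lowers that difference by construction. Within a tissue the replicate number did not pair samples of different genotypes (r = -0.274 to 0.419, 13 of 30 pairs above 0.1, 6 of 30 best with their own number); with it as a replicate block 30 members fell in DKO against Rb KO crypts and 37 in DKO against control crypts.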
